A study of Mus musculus with 6 samples.

Results

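The interleukin-12, interleukin-15 and interleukin-27 axis was followed through the immune cells of mouse colon tumours as 9 genes, matched by symbol among the 32285 genes of the count matrices. The members were the cytokine subunits Il12a, Il12b, Il27 and Ebi3, the cytokine Il15, and the receptor genes Il12rb1, Il12rb2, Il15ra and Il18r1. Their raw unique molecular identifiers (UMIs, 1 per captured RNA molecule) were counted in dendritic cells, macrophages and monocytes, T cells and NK cells of 6 single-cell libraries. Cells were assigned by marker genes that included no member, so the member levels played no part in the choice of cells.

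The libraries came from a Control and a SOX17KO group, the latter named for knockout of Sox17, a transcription factor gene of the endoderm. Each group had 1 library in each of 3 collections: an untimed collection, 1 week and 2 weeks. Sorted cells were positive for the leukocyte protein CD45, negative for the epithelial protein EpCAM and negative for the dead-cell dye 7-AAD, and were profiled with 10x Genomics 3′ chemistry. Tumours of 5 mice were pooled per condition according to the series description, which does not speak of the single collections. The genotype of the 1-week and 2-week libraries is given in their titles alone. The sources used here do not give strain, age, how the tumours were made, how or in which cells Sox17 was deleted, or what the time is counted from. Sox17 itself gave 3 to 20 UMIs per library (0.138 to 0.386 CPM, counts per 1000000 UMIs of the same cells), which in a sort of immune cells checks nothing about the deletion.

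Interleukin-12 is a pair of the Il12a product (p35) and the Il12b product (p40), made mainly by dendritic cells and macrophages after microbial signals or CD40 ligation. It binds the paired receptors encoded by Il12rb1 and Il12rb2 on T and NK cells, acts through STAT4 and promotes interferon-gamma, and it acts together with interleukin-18, whose receptor subunit is encoded by Il18r1. Interleukin-27 pairs the Il27 product (p28) with the Ebi3 product, and Ebi3 can also pair with p35. Interleukin-15 is held at the surface of the producing cell by the Il15ra product and is presented there to NK cells and CD8 T cells.

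The libraries held 3163 to 7495 cell barcodes and 18281322 to 52150180 UMIs, with a median of 3102 to 6132 UMIs per kept cell. Of 34607 barcodes, 33862 were kept, and 59.6% to 72.7% of them per library fell in 1 of the 4 classes. The collections differed in makeup: T cells were 48.6% and 56.3% of the kept cells in the untimed Control and SOX17KO libraries, 1.27% and 1.57% at 1 week, and 38.9% and 21.8% at 2 weeks. Pairs of libraries shared 4 to 12 barcode sequences. Ptprc, which encodes CD45, had a UMI in 86.6% to 93.8% of barcodes and Epcam in 0.968% to 3.57%. With 1 library for each genotype in a collection, the genotype test used the 3 collections as replicates, with collection as a term. Within 1 collection no test was possible, and ratios there carry 95% intervals that cover counting error only.

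**Figure D1:**
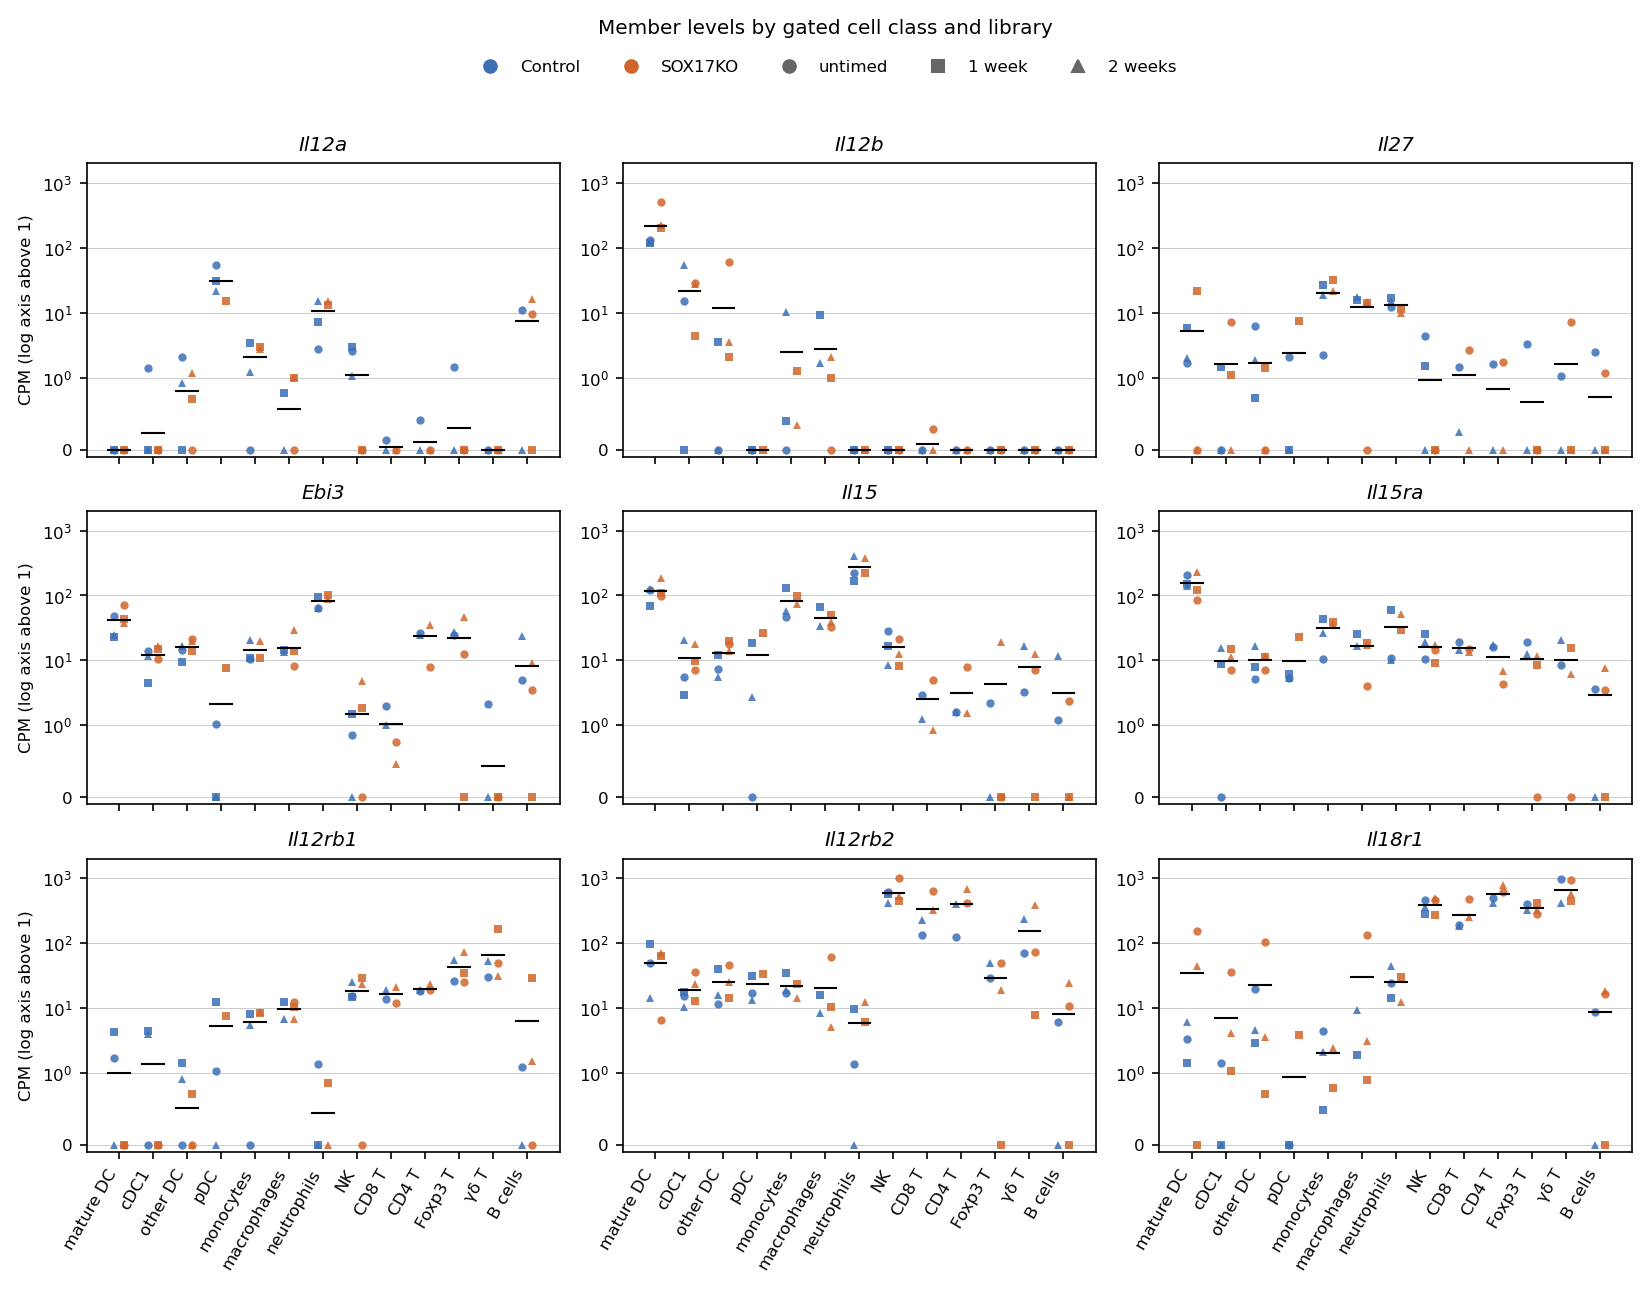
Level of each member gene (1 panel each) by gated cell class: the vertical axis is CPM, logarithmic above 1 and linear below, each point is 1 library with at least 20 cells of the class, colour gives genotype, shape gives collection and the bar is the mean. Here other DC leaves out type 1 dendritic cells (cDC1), which have a column of their own. Il12b points lie at 118 to 508 CPM in mature dendritic cells, Il12rb2 points at 410 to 1016 CPM in NK cells, and Il15 points at 168 to 400 CPM in neutrophils.

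Il12b was a gene of dendritic cells. Of its 1229 UMIs, 53.3% lay in the 1451 dendritic cells and 44.1% in the 380 mature dendritic cells alone, those with the migration and maturation markers Ccr7, Fscn1, Ccl22 and Cacnb3. In mature dendritic cells Il12b stood at 134, 118 and 124 CPM in the Control libraries and 508, 199 and 226 CPM in the SOX17KO libraries, in the order untimed, 1 week and 2 weeks. It was not seen in any of 774 B cells, which allows a share of up to 0.388% of cells with a UMI, and it had 0 UMIs in NK cells, neutrophils and plasmacytoid dendritic cells.

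Il12a, the partner of Il12b, was spread differently. It had 439 UMIs in all, none of them in mature dendritic cells. Macrophages and monocytes held 30.1% of these UMIs (25.3% in monocytes), at a mean of 1.73 CPM ± 1.08 (SD, n = 6). Plasmacytoid dendritic cells held 17.1%, neutrophils 6.61%, B cells 6.38% and cells that no gate held 35.5%. The mean level of Il12a was highest in plasmacytoid dendritic cells, which are known as interferon producers. They stood at 53.7 CPM in the untimed Control library (51 UMIs) and 21.5 CPM in 2-week Control (8 UMIs). The 1-week Control and SOX17KO libraries held 31.2 and 15.1 CPM, from 5 and 4 UMIs. The plasmacytoid mean was 30.4 CPM ± 16.9 (SD, n = 4 libraries with at least 20 such cells). Neutrophils stood at 10.6 CPM ± 5.43 (SD, n = 5) and B cells at 7.39 CPM ± 7.24 (SD, n = 5). The lowest plasmacytoid value, 15.11 CPM from 4 UMIs, was close to the highest neutrophil value, 15.04 CPM from 6 UMIs. At such counts the gap between these 2 ranges is not resolved. The plasmacytoid range overlapped that of B cells, which reached 16.5 CPM of Il12a. No cell held both UMIs: of 33862 kept cells, 303 had Il12a, 163 had Il12b and 0 had both. Both genes were so rarely detected that 0 shared cells can arise without any exclusion. At this depth the count is a statement about detected UMIs and not about the absence of expression.

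In a comparison added after seeing the data, edgeR's quasi-likelihood test placed Il12a 5.50 ± 0.56 (SE) log2 units higher in plasmacytoid than in other gated dendritic cells (adjusted p = 2.14e-05, higher in 4 of 4 libraries). In that comparison 17.1% of 10172 genes were higher and 21.4% lower. Il15, Il15ra and Ebi3 were lower in plasmacytoid cells, by log2 differences of -2.49, -2.68 and -3.63 (adjusted p = 0.00997, 0.000352 and 0.000958). Il12b was lower too (adjusted p = 7.15e-05), with 0 UMIs in plasmacytoid cells. The plasmacytoid group rested on 243 cells, and without the 2-week pair the call on Il15 was lost (log2 difference -2.19, adjusted p = 0.0537). Il12rb1, Il12rb2 and Il27 did not pass (adjusted p = 0.298, 0.295 and 0.561).

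Against macrophages and monocytes, dendritic cells differed in 5 of the 8 members tested. The test found 27.5% of 10924 genes higher and 27.5% lower. Il12b was higher in dendritic cells by 3.97 ± 0.42 log2 units (adjusted p = 8.04e-06, 6 of 6 libraries) and Il15ra by 0.64 ± 0.20 (adjusted p = 0.0151, 6 of 6), a call that was lost without the 2-week pair (0.68, adjusted p = 0.0918). Macrophages and monocytes held the higher level of the other 3. The log2 differences (edgeR), dendritic minus macrophage and monocyte, were -2.65 ± 0.44 for Il27 (adjusted p = 0.000272), -2.78 ± 0.50 for Il12rb1 (adjusted p = 0.000486) and -0.98 ± 0.20 for Il15 (adjusted p = 0.00136, lower in dendritic cells in 6 of 6 libraries). Dendritic cells held the higher level of Il27 in 2 of 6 libraries and of Il12rb1 in 1 of 6. Il12rb2 gave 0.49 ± 0.20 (adjusted p = 0.0584), which passed under 4 alternatives (adjusted p = 0.0185 to 0.0459). Ebi3 and Il18r1 did not pass (adjusted p = 0.376 and 0.35).

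Within the dendritic cells the members differed with maturation. Il15, Il15ra, Ebi3 and Il12rb2 were higher in mature than in other dendritic cells along with Il12b, which makes 5 of the 6 members tested, where 23.9% of 8477 genes were higher and 24.9% lower. Il15 stood at 124, 98.9, 69.1, 110, 124 and 189 CPM in mature dendritic cells of the untimed Control, untimed SOX17KO, 1-week Control, 1-week SOX17KO, 2-week Control and 2-week SOX17KO libraries. In all other dendritic cells of the same libraries, type 1 dendritic cells included, it stood at 6.56, 12.4, 9.16, 15.7, 11.9 and 15.9 CPM, and the ranges did not overlap. The difference was 3.51 ± 0.20 log2 units (edgeR, adjusted p = 1.58e-09, 6 of 6 libraries).

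Il15ra, which encodes the chain that presents interleukin-15, showed the same direction. In the same library order it stood at 208, 85.7, 148, 122, 142 and 226 CPM in mature and at 2.98, 7.11, 8.20, 12.8, 16.2 and 11.5 CPM in other dendritic cells, again without overlap. The fitted difference was 4.18 ± 0.27 log2 units (edgeR, adjusted p = 6.4e-09, 6 of 6). Ligand and receptor chain were also detected in the same cells: of 166 mature dendritic cells with Il15 and 198 with Il15ra, 114 had both, which is 68.7% of the former and 57.6% of the latter. In monocytes 484 cells had both, of 1943 with Il15 and 1078 with Il15ra. Cells with more UMIs are more likely to show both genes, so these overlaps are descriptions. In B cells 0.517% of cells had a UMI of Il15 and 1.42% of Il15ra.

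Ebi3, the beta subunit of interleukin-27, ranged from 23 to 72.5 CPM in mature and from 7.71 to 18.5 CPM in other dendritic cells, and its fitted difference was 1.68 ± 0.23 log2 units (edgeR, adjusted p = 2.13e-05, 6 of 6). Its partner Il27 stood at 5.17 CPM ± 8.29 (SD, n = 6) in mature dendritic cells, too low for the test. Il12rb2, the signalling chain of the interleukin-12 receptor, stood at 6.59 to 97.8 CPM in mature and 13.1 to 40.9 CPM in other dendritic cells. These ranges overlapped, and the untimed SOX17KO library ran the other way (6.59 against 40.9 CPM). The 6.59 CPM came from 1 of 25 cells. Dendritic cells of that library held 120 CPM of 11 T cell marker genes, whose part in the 40.9 CPM was not tested. The Il12rb2 fit gave 1.56 ± 0.33 (edgeR, adjusted p = 0.00101, 5 of 6 libraries), and the call was lost without the 1-week pair (1.10, adjusted p = 0.0663). For Il12b the maturation difference was 4.27 ± 0.32 log2 units (adjusted p = 4.74e-08, 6 of 6). Il18r1 did not pass (adjusted p = 0.0943).

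**Figure D2:**
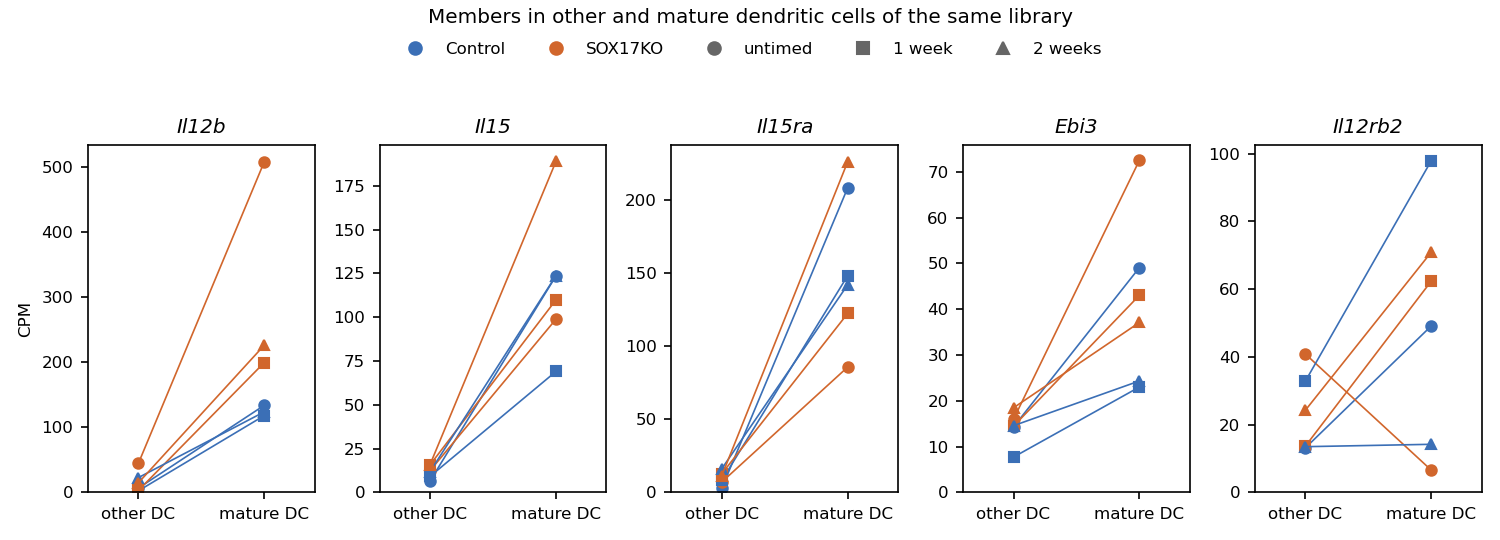
Level in CPM (linear axis, separate scale per gene) of 5 members in all other dendritic cells and in mature dendritic cells, with lines joining the same library, colour for genotype and shape for collection. Each line of Il12b, Il15, Il15ra and Ebi3 goes up to the mature cells. For Il12rb2 the untimed SOX17KO library goes down from 40.9 to 6.59 CPM, the latter from 1 of 25 cells.

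Start-site windows of members that were higher together in mature dendritic cells are shown because maturation genes are classic targets of NF-kappaB, whose consensus was searched as GGGNNNNNCC on both strands. Windows run from 250 bases before to 50 bases after a start site (RefSeq, GRCm38.p6, 5′ to 3′ on the gene's strand), and capitals mark matches, overlapping ones joined. RefSeq windows were found for 6 of the 9 members, not for Il12rb1, Il15 or Il27.
Il12b, chr11:44399813-44400112, plus strand: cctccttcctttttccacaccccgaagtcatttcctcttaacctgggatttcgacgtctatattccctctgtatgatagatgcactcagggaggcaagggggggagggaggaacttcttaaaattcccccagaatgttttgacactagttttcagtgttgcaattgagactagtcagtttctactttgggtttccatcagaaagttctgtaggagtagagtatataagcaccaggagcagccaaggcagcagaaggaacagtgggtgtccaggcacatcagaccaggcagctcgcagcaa
Il15ra, first start site, chr2:11705043-11705342, plus strand: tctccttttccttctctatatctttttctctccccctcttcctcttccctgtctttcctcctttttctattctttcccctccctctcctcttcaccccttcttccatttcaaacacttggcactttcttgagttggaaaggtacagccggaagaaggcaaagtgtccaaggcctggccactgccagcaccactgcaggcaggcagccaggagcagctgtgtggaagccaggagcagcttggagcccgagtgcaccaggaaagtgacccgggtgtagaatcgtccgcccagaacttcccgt
Il15ra, second start site, chr2:11705462-11705761, plus strand: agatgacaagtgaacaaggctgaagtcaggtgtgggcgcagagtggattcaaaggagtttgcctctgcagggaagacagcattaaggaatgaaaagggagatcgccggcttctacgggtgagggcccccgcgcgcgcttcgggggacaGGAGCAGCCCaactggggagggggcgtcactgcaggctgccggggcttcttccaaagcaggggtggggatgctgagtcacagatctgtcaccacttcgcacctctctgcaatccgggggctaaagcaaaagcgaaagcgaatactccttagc
Ebi3, chr17:55952373-55952672, plus strand: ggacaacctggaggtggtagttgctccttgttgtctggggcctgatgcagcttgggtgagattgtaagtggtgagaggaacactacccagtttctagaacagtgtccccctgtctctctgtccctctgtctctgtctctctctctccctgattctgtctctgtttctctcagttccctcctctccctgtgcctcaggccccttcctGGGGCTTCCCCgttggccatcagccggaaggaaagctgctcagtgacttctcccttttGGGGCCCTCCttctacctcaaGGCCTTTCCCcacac
Il12rb2, chr6:67376139-67376438, minus strand: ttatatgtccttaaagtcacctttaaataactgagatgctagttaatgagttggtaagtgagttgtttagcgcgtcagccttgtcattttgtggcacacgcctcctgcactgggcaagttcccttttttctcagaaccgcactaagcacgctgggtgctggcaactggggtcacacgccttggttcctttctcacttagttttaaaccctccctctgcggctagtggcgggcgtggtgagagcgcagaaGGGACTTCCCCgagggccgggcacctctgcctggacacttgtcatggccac

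The Ebi3 window held 6 matches, several of them overlapping or the same bases read on both strands, and the Il12rb2 window held 3. The second Il15ra window held 1, and the first Il15ra window and the Il12b window held 0. The motif is loose: 50.8% of 32851 windows of this length held at least 1 match. Of 3 further motifs searched on both strands, the second Il15ra window held 1 match to the AP-1 form TGANTCA (in 7.81% of windows) and the Il12rb2 window 1 match to the STAT form TTCNNNGAA (in 8.30%). The interferon-response form GAAANNGAAA (in 3.44%) was in none of the 5 windows. A match is a description of these letters and not a bound site, and no match says only that the letters are not in this window.

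The genes themselves, in GRCm38 coordinates, are Il12a at chr3:68690644-68698547, Il12b at chr11:44400063-44414033, Il27 at chr7:126589010-126594941, Ebi3 at chr17:55952640-55957022, Il15 at chr8:82331632-82403222, Il15ra at chr2:11705290-11734317, Il12rb1 at chr8:70808449-70821424, Il12rb2 at chr6:67291318-67376188 and Il18r1 at chr1:40465552-40500854. Il12rb2 overlaps Serbp1, Il27 overlaps Apobr and Ebi3 overlaps the antisense gene Gm16712, each on the opposite strand. The sources used here do not say whether counting used strand, so reads from an overlap could belong to either gene.

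Genes of the wider pathway were called with maturation as well. From a list of 49 partners, kinases, STAT factors, regulators and inducing signals, 36 were tested, of which 21 were higher and 5 lower in mature dendritic cells, and their median difference was 0.93 log2 units against -0.04 over all genes. Stat4, the factor activated by interleukin-12, was higher by 2.62 ± 0.13 (edgeR, adjusted p = 4.79e-10). Cd40, the receptor through which T cells induce interleukin-12, was higher by 2.25. Rel, an NF-kappaB subunit that acts on Il12b, was higher by 1.27, Jak2 by 1.14 and Stat3 by 1.35, all called. Relb, Socs2 and Tlr3 also passed, at 2.78, 5.32 and -7.03, but they are gate markers of the mature or type 1 dendritic class and their differences follow from the gate. Without the 4 tested pathway genes that are in a marker list (the fourth is Il2ra), 18 of 32 were higher and 4 lower, against 23.9% and 24.9% of all genes, and the median was 0.67.

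The difference between genotypes was examined for all members in all 4 classes, and none of the members tested passed. In dendritic cells, macrophages and monocytes, and T cells the fit called 0%, 0% and 0% of 9973, 10862 and 12864 genes, with 796, 178 and 1091 genes at an unadjusted p under 0.05, and in NK cells 0.0234% of 8556 genes. The DESeq2 test called 0, 1, 15 and 1 genes in these classes, no member among them. Within single collections, 61 CPM ratios had at least 10 UMIs in both libraries, and 29 had a counting interval that left out 1, of which 17 were higher and 12 lower in SOX17KO. The fits have few residual degrees of freedom, and an adjusted p over the threshold does not show that the levels were alike.

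Il12b had the largest difference between genotypes among the members in dendritic cells that was higher in all 3 pairs. Over all dendritic cells it stood at 39.7 against 143 CPM (Control against SOX17KO) in the untimed pair, 31.4 against 56.6 CPM at 1 week and 43.9 against 48.2 CPM at 2 weeks. SOX17KO was the higher of each pair, and the Control values (31.4 to 43.9 CPM) lay below the SOX17KO values. The fitted difference was 0.90 ± 0.31 log2 units (edgeR, unadjusted p = 0.0236, adjusted p = 0.591). The 2-week log2 ratio of 0.14 had an interval of -0.29 to 0.56, and it turned to -0.73 when cells over 5% mitochondrial UMIs were left out. In the 2-week Control library 1 cell held 42 of the 103 Il12b UMIs of dendritic cells.

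Mature dendritic cells alone were compared after seeing the data. The Control libraries held 118 to 134 CPM and the SOX17KO libraries 199 to 508 CPM, without overlap. The log2 ratios were 1.92 (1.45 to 2.40), 0.76 (0.37 to 1.15) and 0.87 (0.35 to 1.39) in the untimed, 1-week and 2-week pairs. The fit gave 1.16 ± 0.30 (unadjusted p = 0.00417, adjusted p = 0.954), in a comparison that called 0% of 6287 genes, with 281 at an unadjusted p under 0.05 and 1 called by the DESeq2 test. Mature cells were 30.1%, 27.3% and 23.6% of dendritic cells in the Control libraries and 22.7%, 28.3% and 21.1% in the SOX17KO libraries.

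The Il12b level rested on few cells. In mature dendritic cells it was detected in 14 of 83, 5 of 79 and 7 of 66 Control cells and in 7 of 25, 19 of 88 and 6 of 39 SOX17KO cells. The shares were 16.9% (exact Clopper-Pearson interval 9.54% to 26.7%), 6.33% (2.09% to 14.2%) and 10.6% (4.37% to 20.6%) in Control against 28% (12.1% to 49.4%), 21.6% (13.5% to 31.6%) and 15.4% (5.86% to 30.5%) in SOX17KO. SOX17KO had the higher share in each collection, and the intervals of each pair overlapped. After each cell was thinned to 1000 UMIs the shares were 7.89%, 2.53% and 1.52% in Control and 16.7%, 9.09% and 5.26% in SOX17KO. Median depth of mature dendritic cells was 6380 to 10441 UMIs, against 2471 to 3661.5 in B cells, where Il12b was not seen.

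Single cells carried much of the sum. One cell held 55 of the 82 Il12b UMIs in the 1-week Control library, and the highest cell held 19, 26, 49, 22 and 38 UMIs in the untimed Control, untimed SOX17KO, 1-week SOX17KO, 2-week Control and 2-week SOX17KO libraries. Without that 1 cell each, the levels were 102, 38.8 and 79.1 CPM in Control and 336, 144 and 97.9 CPM in SOX17KO. SOX17KO remained higher in each pair, and the ranges then overlapped. With a mitochondrial limit of 5% in place of 10%, the 2-week log2 ratio in mature dendritic cells turned to -0.25. The counting intervals above treat UMIs as independent and are too narrow for a gene carried by so few cells.

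The other members of mature dendritic cells did not pass either. Ebi3 stood at 49.1 against 72.5, 23 against 43.1 and 24.3 against 37.1 CPM (Control against SOX17KO), higher in SOX17KO in 3 of 3 pairs with overlapping ranges (edgeR, adjusted p = 0.954). Il15 was higher in SOX17KO in 2 of 3 pairs and Il15ra in 1 of 3 (adjusted p = 0.964 and 0.98). Il12rb2 had no common direction, with a log2 ratio of -2.90 for the untimed libraries, -0.65 at 1 week and 2.32 at 2 weeks (adjusted p = 0.996). Its untimed SOX17KO value came from 1 of 25 cells. Il18r1 had the widest fitted difference of the members there, and its values are given with those of the other myeloid cells.

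**Figure D3:**
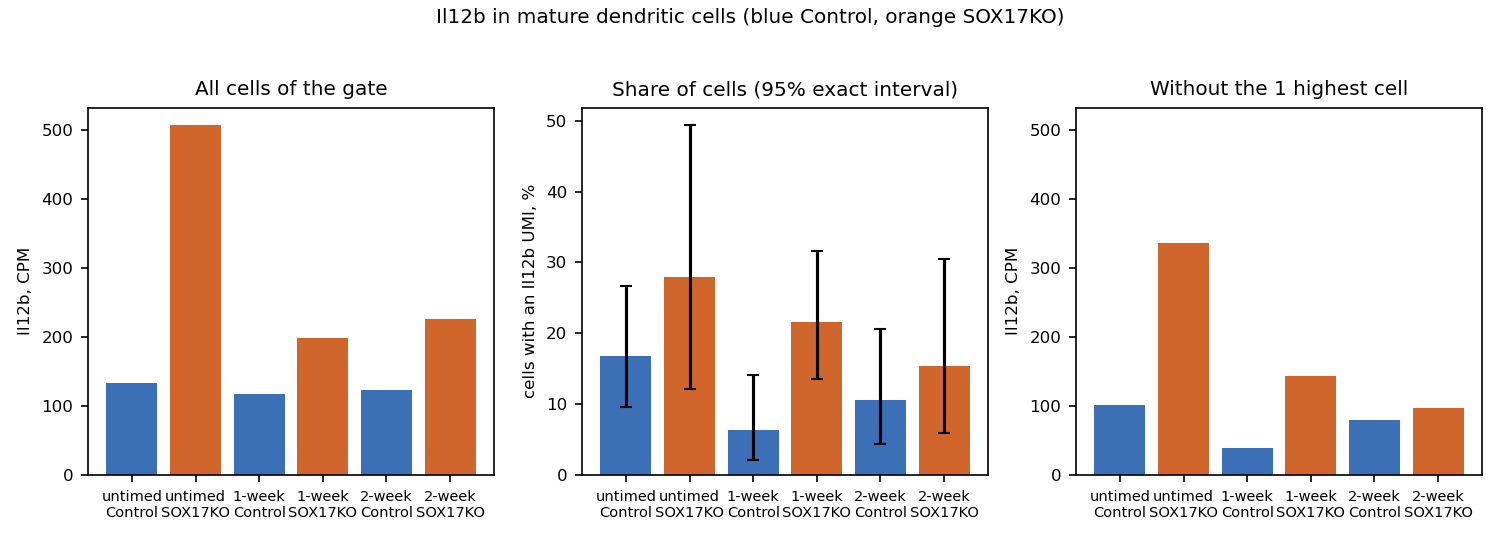
Il12b in mature dendritic cells by library: CPM over all cells of the gate on the left, the percentage of cells with a UMI with exact 95% intervals in the middle, and CPM without the 1 cell with most Il12b UMIs on the right. Each bar is 1 library, blue for Control and orange for SOX17KO, and the SOX17KO bar is the taller of each collection in all panels, with 79.1 against 97.9 CPM at 2 weeks once the top cell is left out.

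Outside mature dendritic cells Il12b was scarce. The remaining dendritic cells held 6.56, 2.41 and 22.7 CPM in Control and 44.4, 2.98 and 14.7 CPM in SOX17KO, with no common direction. The 2-week Control value came from 42 UMIs in 1 type 1 dendritic cell, and the untimed Control value from 11 UMIs in 1 such cell. The direction at 2 weeks thus rests on 1 cell. In macrophages and monocytes the untimed libraries had 0 UMIs, and the Control library was the higher at 1 week (87 UMIs in 11 cells against 36 in 9 cells, log2 ratio -1.81) and at 2 weeks (36 UMIs in 3 cells against 5 in 3 cells, log2 ratio -2.96). In 2-week Control, 34 of the 36 UMIs lay in 2 monocytes, both with at least 2 of the 4 core mature dendritic markers. Of all 1119 cells of the class there, 4 had at least 2, and the part of such cells in the result was not tested. The fit gave -2.22 ± 0.47 (unadjusted p = 0.00541, adjusted p = 1 over all genes). The difference between the dendritic and the macrophage genotype effects, added after seeing the data, was 2.67 ± 0.54 (unadjusted p = 0.000473, adjusted p = 1), in a test that called 0% of 10924 genes, with 259 at an unadjusted p under 0.05 and 0 called by the DESeq2 test.

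Splitting that class, also after seeing the data, put most of the 1-week UMIs in macrophages. There Il12b had 82 UMIs in 1-week Control and 12 in 1-week SOX17KO, and 2 and 4 at 2 weeks, so that the collections ran in opposite directions. The fit gave -2.63 ± 0.55 (edgeR, adjusted p = 0.0247), among 0.288% of 10773 genes called. The call was lost with DESeq2's size factors (adjusted p = 0.21), with the DESeq2 test and without the collection term. It was lost with doublet-scored cells removed too (adjusted p = 0.113). With the stricter gate Il12b was not among the genes tested. Of the 9 carrier macrophages in 1-week Control, 3 had at least 1 of the 4 core mature dendritic markers, against 55 of all 1328 macrophages there. Macrophages without any of these markers held 59 of the 82 UMIs, at 7.18 CPM, against 0.958 CPM in such cells of 1-week SOX17KO. The part of marker-bearing cells in the result was not tested. In monocytes the directions also differed (5 against 24 UMIs at 1 week, 34 against 1 at 2 weeks, Control against SOX17KO), and the difference did not pass (adjusted p = 0.968) where 0.338% of 10934 genes were called.

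Il27 was a gene of monocytes and macrophages. They held 71.9% of its UMIs, and monocytes alone held 53.6% of all its UMIs. Monocytes stood at 26.6 and 31.6 CPM in the 1-week Control and SOX17KO libraries, 19 and 21.7 CPM at 2 weeks and 2.24 CPM in the untimed Control library, while the untimed SOX17KO library had too few monocytes (18) to give a level. In macrophages the timed libraries held 14.3 to 17.5 CPM, and the untimed SOX17KO library 0 CPM in 68 cells. Neutrophils stood at 13.1 CPM ± 2.78 (SD, n = 5). In the 4 timed libraries SOX17KO was slightly higher in monocytes and slightly lower in macrophages, and neither difference passed (edgeR, adjusted p = 0.968 and 1). The untimed libraries held 215 and 86 macrophages and monocytes, against 3432 and 4402 at 1 week.

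Ebi3 did not keep to the cells that had Il27. It was highest in neutrophils, at 64.3 CPM in the untimed Control library, 96 and 101 CPM at 1 week and 65 and 87.7 CPM at 2 weeks (Control and SOX17KO). It was next in mature dendritic cells (41.5 CPM ± 18.3, SD, n = 6), and these values overlapped those of neutrophils. Among T cells it was a gene of the CD4 and Foxp3 classes, at 23.7 CPM ± 11.6 (SD, n = 4) and 21.9 CPM ± 17.1 (SD, n = 5), against 1.06 CPM ± 0.667 (SD, n = 4) in CD8 T cells. In macrophages and monocytes 1046 cells had Il27, 776 had Ebi3 and 92 had both, which is 8.80% of the former and 11.9% of the latter. The other partner of Ebi3, Il12a, was found in 303 kept cells, of which 40 also had Ebi3.

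Neutrophils were compared with macrophages and monocytes after seeing the data, in 5 libraries with enough cells, and 28% of 8962 genes were higher and 31.4% lower. Il15 was higher in neutrophils by 2.42 ± 0.27 log2 units (edgeR, adjusted p = 3.31e-06, 5 of 5), from 219, 168, 224, 400 and 381 CPM in the untimed Control, 1-week Control, 1-week SOX17KO, 2-week Control and 2-week SOX17KO libraries. Ebi3 was higher by 2.96 ± 0.25 (adjusted p = 1.62e-07), Il12a by 3.13 ± 0.55 (adjusted p = 0.000219) and Il18r1 by 3.98 ± 0.50 (adjusted p = 9.58e-06), each in 5 of 5 libraries. Il12rb1 was lower by a log2 difference of -2.77 (adjusted p = 0.0235), lost without the 2-week pair (adjusted p = 0.0944). Il15ra passed at 0.70 (adjusted p = 0.0451) in 3 of 5 libraries and did not pass under 8 of 9 alternatives (adjusted p = 0.0535 to 0.354). Il12rb2 gave -1.14 ± 0.48 (adjusted p = 0.053) and passed under 7 alternatives (adjusted p = 0.00239 to 0.0497). Il27 did not pass (adjusted p = 0.891). Neutrophils were the shallowest class, with a median of 1485 to 2142.5 UMIs.

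In monocytes Il15 stood at 131 and 97.2 CPM at 1 week, 57 and 73 CPM at 2 weeks (Control and SOX17KO) and 47 CPM in the untimed Control library. Macrophages stood lower, at 66, 49.8, 33.4 and 39.2 CPM in the 4 timed libraries in the same order. Neither genotype was higher at both times in either cell type. Over macrophages and monocytes together the change from 1 to 2 weeks was -0.76 ± 0.23 for Il15 (edgeR, unadjusted p = 0.0149, adjusted p = 0.325), and it was 0.72 ± 0.21 for Ebi3 (unadjusted p = 0.0143, adjusted p = 0.325). This comparison called 0% of 10862 genes, with 1314 at an unadjusted p under 0.05 and 52 called by the DESeq2 test. Without the untimed pair both passed (adjusted p = 0.022 and 0.033).

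Il12rb2, the chain that lets a lymphocyte respond to interleukin-12, had 57.3% of its UMIs in T cells and 8.68% in NK cells. NK cells stood at 607, 577 and 410 CPM in the untimed, 1-week and 2-week Control libraries and at 1016, 441 and 536 CPM in the SOX17KO libraries. T cells stood at 121, 170 and 270 CPM in Control and 585, 149 and 431 CPM in SOX17KO. NK cells were above the T cells of their own library in 6 of 6 libraries, by 1.24 ± 0.23 log2 units (edgeR, adjusted p = 0.0012), where 12.2% of 9437 genes were higher and 12.8% lower. NK cells were also higher in Il15 (2.89 ± 0.39, adjusted p = 8.8e-05, 6 of 6) and lower in Ebi3 (-2.15 ± 0.54, adjusted p = 0.0101, higher in 1 of 6). Il12rb1, Il15ra and Il18r1 did not pass (adjusted p = 0.253, 0.976 and 0.445).

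Detection of Il12rb2 in NK cells was well above that in B cells. Il12rb2 had a UMI in 62.8% to 88.6% of NK cells by library at a median depth of 3623 to 4680 UMIs, against 1.16% of B cells at 2471 to 3661.5. The untimed SOX17KO library, the highest, held 35 NK cells, against 137 to 262 in the others. The genotype difference in NK cells did not pass for Il12rb2 or Il18r1 (edgeR, adjusted p = 1 for both), and neither had the same direction in all 3 collections.

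T cell subsets held Il12rb2 unevenly. CD4 T cells without Foxp3 stood at 408 CPM ± 232 (SD, n = 4), CD8 T cells at 331 CPM ± 219 (SD, n = 4) and gamma-delta T cells at 156 CPM ± 157 (SD, n = 5), and these spreads overlap. Foxp3 T cells, the regulatory class, stood at 29.5 CPM ± 21.2 (SD, n = 5), and not above 49.8 CPM in any library. Against Foxp3 T cells, CD8 T cells were higher in Il12rb2 by 2.82 ± 0.28 log2 units (edgeR, adjusted p = 2.14e-06, 4 of 4 libraries), in a comparison added after seeing the data where 6.53% of 10678 genes were higher and 6.98% lower. In that test Ebi3 was lower in CD8 T cells (-4.28 ± 0.51, adjusted p = 1.64e-05). Il12rb1 was lower as well (-1.23 ± 0.28, adjusted p = 0.00631), a call that was lost without the 2-week pair (-0.84, adjusted p = 0.568). Il15, Il15ra and Il18r1 did not pass (adjusted p = 0.767, 0.717 and 0.414).

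Il12rb1, the chain shared by the interleukin-12 and interleukin-23 receptors, thus had its own order. Gamma-delta T cells stood at 65.5 CPM ± 55.7 (SD, n = 5), Foxp3 T cells at 42.4 CPM ± 20.7 (SD, n = 5), CD4 T cells at 19.9 CPM ± 2.21 (SD, n = 4), NK cells at 18 CPM ± 10.4 (SD, n = 6) and CD8 T cells at 16.4 CPM ± 4.17 (SD, n = 4). Foxp3 T cells lay above CD4 T cells in each of the 4 libraries with at least 20 of both, at 24.9 to 72.6 against 18.2 to 23.2 CPM, a difference that was not tested. The lowest Foxp3 value, in untimed SOX17KO, came from 2 UMIs in 22 cells. The ranges of the other neighbours in this order overlapped. Gamma-delta T cells were higher than CD8 T cells in Il12rb1 by 1.35 ± 0.30 log2 units (edgeR, adjusted p = 0.0169, 4 of 4), a comparison added after seeing the data in which 5.42% of 9957 genes were higher and 3% lower. The call was lost with a stricter gate (1.01, adjusted p = 0.119) and without the untimed pair (1.13, adjusted p = 0.204). Il12rb2, Il15 and Il15ra did not pass (adjusted p = 0.294, 0.316 and 0.313). The paired chains were seen together in 70 NK cells. These were 76.9% of the 91 with Il12rb1 and 9.23% of the 758 with Il12rb2. Of all 1013 NK cells 758 had Il12rb2, so most cells with Il12rb1 would hold it without any link. Of 4861 CD8 T cells, 382 had Il12rb1, 2715 had Il12rb2 and 229 had both.

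Il18r1, whose product receives interleukin-18, had its highest mean in gamma-delta T cells. They stood at 978 and 412 CPM in the untimed and 2-week Control libraries and 945, 443 and 566 CPM in the untimed, 1-week and 2-week SOX17KO libraries, and the 1-week Control library had too few of them. The difference from CD8 T cells was 1.38 ± 0.25 log2 units (edgeR, adjusted p = 0.00489, 4 of 4 libraries). CD4 T cells followed at 579 CPM ± 157 (SD, n = 4), then NK cells at 390 CPM ± 99.5 (SD, n = 6), Foxp3 T cells at 352 CPM ± 56.2 (SD, n = 5) and CD8 T cells at 276 CPM ± 137 (SD, n = 4), neighbours whose spreads overlap. Of 1013 NK cells, 758 had Il12rb2, 668 had Il18r1 and 502 had both. Of 4861 CD8 T cells, 2715 had Il12rb2, 2770 had Il18r1 and 1760 had both. Both genes were frequent in these classes, so many shared cells would be seen without any link between them. In B cells 2.33% of cells had a UMI of Il18r1.

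Between genotypes the Il12rb2 levels of T cells were higher in SOX17KO in the untimed and 2-week collections, without passing the test. In CD8 T cells Il12rb2 stood at 135 against 638 CPM in the untimed pair and 226 against 326 CPM at 2 weeks (Control against SOX17KO). In CD4 T cells it stood at 123 against 415 and 405 against 690 CPM. At 1 week T cells were few (70 and 115), and Il12rb2 over all of them was 170 against 149 CPM. The fits gave 1.02 ± 0.44 over all T cells (edgeR, adjusted p = 0.589, 2 of 3 pairs) and, in comparisons added after seeing the data, 1.43 ± 0.50 in CD8 T cells (adjusted p = 0.636) and 1.30 ± 0.26 in CD4 T cells (unadjusted p = 0.000761, adjusted p = 0.197). The CD8 fit called 0% of 11921 genes, with 912 at an unadjusted p under 0.05 and 13 called by the DESeq2 test, and the CD4 fit called 0.0313% of 9591. In CD4 T cells Il12rb2 passed with the DESeq2 test (adjusted p = 0.0113), whose adjustment covered 1782 genes, against 9591 in the edgeR fit. In edgeR it passed with a 5% mitochondrial limit (adjusted p = 0.0189) and doublet-scored cells removed (adjusted p = 0.0206).

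Il18r1 in T cells stood at 325 against 505, 304 against 341 and 262 against 451 CPM in the untimed, 1-week and 2-week pairs. SOX17KO was higher in 3 of 3, and the ranges did not overlap by a small margin: the lowest SOX17KO value, 341 CPM, lay just above the highest Control value, 325 CPM. The fit gave 0.58 ± 0.18 (edgeR, unadjusted p = 0.0136, adjusted p = 0.539). T cell makeup differed between the genotypes too, without a common direction: CD8 cells were 32.5%, 8.57% and 51.6% of T cells in Control and 70.3%, 15.7% and 39.8% in SOX17KO, and Foxp3 cells 12.6%, 24.3% and 4.73% against 0.612%, 20% and 6.86%. The part of makeup in the Il18r1 values was not tested. Within CD8 T cells Il18r1 stood at 191 against 476 and 184 against 254 CPM (fit 0.94, adjusted p = 0.636). Within CD4 T cells it stood at 499 against 621 and 418 against 779 CPM (fit 0.66, adjusted p = 0.405).

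**Figure D4:**
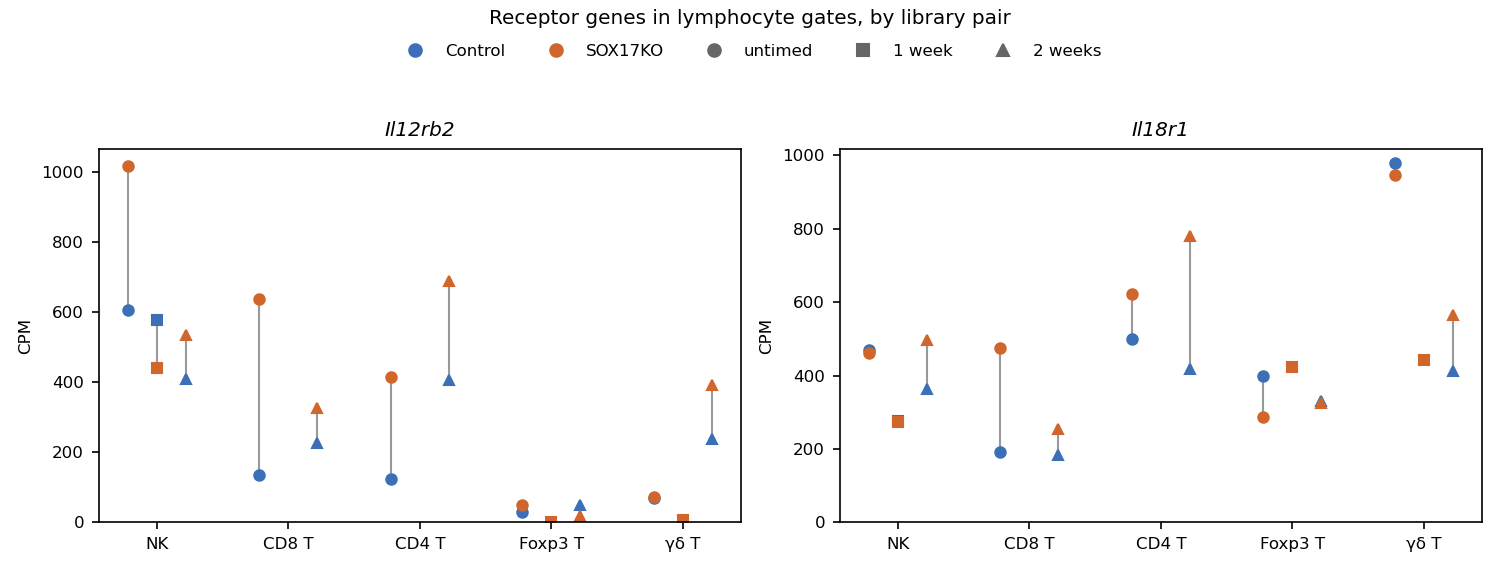
CPM (linear axis) of Il12rb2 and Il18r1 in NK cells and T cell classes, 1 point per library with at least 20 cells, colour for genotype, shape for collection and a line joining the libraries of a collection. Il12rb2 in Foxp3 T cells stays at or below 49.8 CPM, while in CD8 T cells it lies between 135 and 638 CPM, and the gamma-delta points of Il18r1 reach 978 CPM.

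A few members with lower counts came under an unadjusted p of 0.05 between genotypes and did not pass the adjustment. Il12rb2 was -0.52 ± 0.18 in monocytes (34.4 against 23.5 and 18.7 against 14.3 CPM, adjusted p = 0.434) and -0.64 ± 0.28 in macrophages (16.1 against 10.5 and 8.34 against 5.16 CPM, adjusted p = 0.817). Il15ra in CD4 T cells was -1.49 ± 0.47 (15.8 against 4.34 and 17.3 against 6.96 CPM, adjusted p = 0.373). Il15 in T cells was 1.15 ± 0.48, from a sum of 163 UMIs (adjusted p = 0.585).

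Il18r1 also appeared in myeloid gates of the untimed SOX17KO library, at 86.8 CPM in dendritic cells and 103 CPM in macrophages and monocytes, against 9.70 and 5.09 CPM in untimed Control. The dendritic fit gave 2.17 ± 0.64 (edgeR, adjusted p = 0.591, 2 of 3 pairs). The macrophage fit, over the 1-week and 2-week pairs, ran the other way at -1.30 ± 0.56 (unadjusted p = 0.0266, adjusted p = 0.795), with 1.92 against 0.905 and 9.18 against 3.09 CPM of Il18r1. In mature dendritic cells the values were 3.39 against 152, 1.44 against 0 and 6.09 against 43.9 CPM in the untimed, 1-week and 2-week pairs, and the fit gave 3.71 ± 0.94 (adjusted p = 0.954). The 2-week SOX17KO value came from 13 UMIs in 1 of 39 cells, and the untimed one from 23 UMIs in 8 of 25 cells. The summed level of 11 T cell marker genes was high in the same library. In dendritic cells it was 120 CPM with 9 of the 11 detected, against 4.82 to 42.8 CPM in the others, and in macrophages and monocytes 344 CPM with 10 detected, against 7.81 to 41.9 CPM. The part of T cell RNA in this Il18r1 level was not tested. B cells of the untimed SOX17KO library held 16.5 CPM of Il18r1.

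Across time, no member passed in any of the 4 classes. The comparison of 2 weeks with 1 week called 0% of 9973 genes in dendritic cells (2033 at an unadjusted p under 0.05, 108 called by the DESeq2 test), 0.637% of 12864 genes in T cells and 9.24% of 8556 genes in NK cells. Il12rb1 in T cells came nearest, at -1.44 ± 0.29 (edgeR, unadjusted p = 0.0013, adjusted p = 0.0836), from 45.3 and 70 CPM at 1 week to 20.7 and 24.6 CPM at 2 weeks, and the untimed values were 18.3 and 14.1 CPM. The 1-week values rest on 21 and 48 UMIs. T cell makeup changed over the same step (Control and SOX17KO each time). Foxp3 cells, which held more Il12rb1 than CD8 cells, were 24.3% and 20% of T cells at 1 week, then 4.73% and 6.86%. CD8 cells were 8.57% and 15.7%, then 51.6% and 39.8%. Gamma-delta cells, with the highest mean Il12rb1 level, were 8 of 70 and 22 of 115 T cells, then 48 of 1861 and 25 of 656. Of the 1-week Il12rb1 UMIs, gamma-delta cells gave 4 of 21 and 21 of 48, and Foxp3 cells 5 and 4. The part of makeup in the result was not tested. Il12rb1 passed with the DESeq2 test (adjusted p = 0.00735) and without the untimed pair (adjusted p = 6.02e-05). In NK cells Il18r1 changed by 0.45 ± 0.21 (adjusted p = 0.19). Of the 35 pathway genes tested in NK cells, 1 was higher at 2 weeks (Maf, 1.24) and 3 were lower. The lower ones were Ifng, a main product of interleukin-12 signalling, at -1.57, Socs3 at -0.88 and Rel at -0.87. Of 45 tested in T cells, Il21 was higher and Il23r lower at 2 weeks (adjusted p = 0.0311 and 0.00967).

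Pathway genes gave further values in the class comparisons. Dendritic cells against macrophages and monocytes had 14 of 42 higher and 17 lower, where 27.5% of all genes were called in each direction, with Stat4 higher by 2.68. NK cells against T cells had 12 of 41 higher and 14 lower, where 12.2% and 12.8% of all genes were called. Without genes of a marker list the counts were 10 and 17 of 37 in the former and 11 and 13 of 37 in the latter. Il2rb, the signalling chain that interleukin-15 uses on NK cells, was higher by 1.17, Il18rap, the partner of Il18r1, by 1.17 and Stat4 by 0.59, while Il27ra, the interleukin-27 receptor, was lower at -0.88 and Il23r at -8.32. Between genotypes 0 of 38, 42, 45 and 35 pathway genes passed in dendritic cells, macrophages and monocytes, T cells and NK cells. In monocytes Ifng (-2.70, 72 UMIs) and Socs1 (-0.66) were lower in SOX17KO, and in macrophages Socs1 was (-0.97), Socs1 being a feedback inhibitor of cytokine signalling. These calls are not stable: the monocyte fit called 0 genes with the stricter gate, with doublet-scored cells removed and without the collection term, and the macrophage fit 0 genes with DESeq2's size factors and without the collection term.

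The genes whose levels most resembled a member were taken over 58 sums of cell class by library, 10044 genes compared, as Pearson's r of log2 CPM. These sums share libraries and lineages, so r describes which cells hold a gene. For Il12b the closest were Strip2 (r = 0.89), Arhgap28 (0.87), Bcl2l14 (0.87), Slc22a23 (0.87) and Tmsb4x (0.85). For Il27 they were Ccdc71l (0.75), Slc7a2 (0.75), Inhba (0.74), Prxl2b (0.73) and Trem3 (0.71). Il15 lay closest to Tnfrsf11a (0.81), Pdlim5 (0.81), Ogfrl1 (0.81), Lamp1 (0.79) and Anxa3 (0.79), and Il15ra to Tmcc3 (0.74), Gucd1 (0.73), Htra2, Gyg (0.70 each) and Hax1 (0.68). Il12rb2 lay closest to Fasl (0.85), Zfpm1 (0.85), Klrc2 (0.83), Klrc1 (0.82) and Styk1 (0.82), of which Fasl encodes a death ligand and Klrc1 and Klrc2 encode NK receptors. Il18r1 lay closest to Skap1, Ets1 and Tnrc6b (0.95 each) and Gimap3 (0.94). Among members, Il12b had r = 0.60 with Il15, 0.51 with Il15ra and 0.54 with Ebi3.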

How the data were processed

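The deposited matrices hold raw UMI counts per gene and cell barcode, 1 matrix per library, made by the authors with Cell Ranger. The submitters' processing notes name Cell Ranger 6.0.1 and the mouse build mm10, and the matrix headers name version 7.0.1. The annotation release, the intron setting and whether doublets or free RNA were removed are not given in the sources used here.

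Barcodes with under 200 genes or over 10% mitochondrial UMIs were left out. Cells were gated on the number of detected markers per lineage, and a cell with markers of more than 1 lineage was left out. A T cell needed at least 4 T cell markers, an NK cell 6 NK markers, a dendritic cell 4 dendritic markers and a mature one 5 maturation markers with 2 of the 4 core ones. A cell was a macrophage or a monocyte by which of the 2 marker lists it held the larger share of. These classes are gates made here, with no authors' annotation used.

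UMIs were summed per library and class (at least 20 cells) and fitted with edgeR 4.0.16 in R 4.3.3: filterByExpr, TMM scaling, the quasi-likelihood test and Benjamini-Hochberg adjustment over all genes tested, with calls at 0.05. Genotype fits had collection as a term, class fits had library as a block. Errors of fitted log2 differences are standard errors. Ratios within a collection carry exact conditional binomial intervals and shares exact Clopper-Pearson intervals, at 95%, which cover counting error only. Alternatives were DESeq2's size factors and test (DESeq2 1.42.0), no low-count filter, a stricter gate, a 5% mitochondrial limit, removal of cells with the highest doublet scores (0.8% of barcodes per 1000), no collection term and leaving out each collection.

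The members are the named genes, those without a value in the text for a genotype or time comparison did not pass in it, and of the 49 pathway genes at most the 8 with the lowest p per comparison plus receptor partners, the latter chosen after their values were seen. Of the 5 genes closest in pattern to a member, 1 is not reported here. The members and the gene lists were chosen with earlier results of these data known. Nothing says that the collections were separate animals of 1 design, so p-values measure the spread between these libraries.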

Additional observations from a re-analysis of the deposited data

Results flagged for a closer look

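Il12b had opposite genotype directions in 2 classes. In dendritic cells the log2 ratio of SOX17KO to Control was 1.85 in the untimed pair, 0.85 at 1 week and 0.14 at 2 weeks. At 2 weeks 1 cell held 42 of the 103 Control UMIs. In macrophages and monocytes the log2 ratio was -1.81 at 1 week and -2.96 at 2 weeks, and both untimed libraries had 0 UMIs there. The 2-week Control level there rested on 2 monocytes with 34 of the 36 UMIs. Both had core mature dendritic markers, and their part in the result was not tested. The difference between the classes was 2.67 log2 units in the fit over both classes (edgeR's quasi-likelihood test, adjusted p = 1).

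Member UMIs were also found in cells that no gate held, which no comparison used. These cells were 23.3% to 35.3% of the kept cells per library. They held 35.5% of the UMIs of Il12a, 33.1% of those of Il12b, 28.6% of Il12rb1, 28.3% of Il12rb2, 24.9% of Il15, 35.3% of Il15ra, 18.9% of Il27, 29.4% of Ebi3 and 29.2% of Il18r1.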

How the results depend on the processing

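The genotype fits paired the libraries by collection, as a term of the model. Among refitted member differences 399 stayed on the same side of the threshold, 30 passed newly, 19 no longer passed and none changed sign. Of the CPM ratios within a collection, 344 stayed, 3 moved and 2 changed sign with a 5% mitochondrial limit, both of Il12b at 2 weeks: to -0.25 in mature and to -0.73 in all dendritic cells. The cause was not tested.

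Without a low-count filter more genes passed: members called between genotypes were 2 in dendritic cells (241 genes in all, against 0), 1 in macrophages and monocytes (116 genes), 1 in T cells (371 genes), 2 in mature dendritic cells (40 genes), 2 in CD8 T cells (484 genes) and 1 in CD4 T cells (229 genes), and 1 in the difference between dendritic cells and macrophages and monocytes (40 genes). Between 2 weeks and 1 week they were 2 in dendritic cells (871 genes), 3 in macrophages and monocytes (474 genes) and 2 in T cells (908 genes against 82). With the DESeq2 test 1 member passed over time in T cells (491 genes). In macrophages the 1 called member fell to 0 with DESeq2's size factors (0 genes against 31), the DESeq2 test (1 gene), doublet scores removed (5 genes) and no collection term (0 genes). The stricter gate also gave 0 (1 gene), but Il12b was not among the genes tested there. In CD4 T cells 1 member passed with the DESeq2 test (24 of 1782 genes, against 3 of 9591), the 5% limit (75 genes) and doublet scores removed (59 genes). In gamma-delta against CD8 T cells 1 passed with the stricter gate.

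Leaving out each collection in turn gave up to 4 called members over time in macrophages and monocytes (1259 genes, without the untimed pair), up to 2 in T cells (1446 genes, without it) and 1 to 3 in gamma-delta against CD8 T cells. The genotype fits with 2 pairs could not be refitted with a pair left out, since no residual degree of freedom would remain. Thinning to 1000 UMIs moved 276 of 290 shares. Il12a and Il12b are limited by depth: they had 439 and 1229 UMIs over 33862 cells.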

Other observations

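Ebi3 was detected in 2205 kept cells and Il27 in 1510, and 171 held both, which is 7.76% of the former and 11.3% of the latter. Il12rb2 and Il18r1 were detected together in 5115 cells, 57.9% of those with Il12rb2 and 51.7% of those with Il18r1. Among 49 cells with Il12a in the plasmacytoid gate, 2 also had Ebi3.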
